A study of Homo sapiens with 8 samples.

Results

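Human embryonic stem cells carrying the Dicer substitution S1344L on both alleles were set against cells labelled hemizygous for it. The term is used for a gene with a single copy. The comparison holds the substitution constant and varies the number of alleles that carry it. It uses the 4 libraries whose labels give these genotypes, of 8 in all, with 2 libraries for each genotype. It covers all 594 mature miRNAs measured and the 3p to 5p ratio of the 186 hairpins for which both arms were measured. Every library came from H1, an established human embryonic stem cell line, and the labels describe the RNA samples as biologically independent. The other 4 libraries, used as background, are 2 of unedited wild-type cells and 2 of Dicer-null cells. The S1344L lines were made with CRISPR-Cas9. How the other allele of the hemizygous cells was changed, how many clones stand for each genotype and how long the cells were grown were not stated in the labels. Column names code the hemizygous cells as pmfs, the homozygous as pmpm and the null as fsfs, and the codes are not explained.

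Dicer is the nuclease that cuts a precursor hairpin into a short duplex of a 5p and a 3p strand, and one of them is then kept by an Argonaute protein. S1344L lies outside the catalytic residues of its RNase IIIa domain and is found repeatedly in tumours, where it is linked to loss of strands from the 5p side of the hairpin. Bases 2 to 8 of a mature miRNA, the seed, pair with target mRNAs, so miRNAs that share a seed have largely shared targets. In human pluripotent cells the most abundant miRNAs come from the miR-302 and miR-367 cluster, with further copies of the same seed in the miR-371-373 cluster and the primate-specific cluster on chromosome 19.

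The sequences that carry the description are given first, 5′ to 3′ with the seed in capitals. They are from RefSeq, build GRCh38.p14, in which 533 of the 594 names had a mature sequence, and the gene annotation around them is GENCODE's on the same strand. The first set shows one seed made from separate loci whose members lay on opposite sides of the homozygous values. MIR302B is on the minus strand of chromosome 4 (chr4:112648489-112648511), in an intron of the antisense transcript AC106864.1. MIR372 (chr19:53787931-53787953) and MIR373 (chr19:53788748-53788770) are on the plus strand of chromosome 19 with no other annotated gene there.
miR-302b-3p: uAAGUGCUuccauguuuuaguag
miR-372-3p: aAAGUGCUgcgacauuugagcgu
miR-373-3p: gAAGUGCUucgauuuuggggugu

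The neighbouring MIR371A gives both of its arms, at chr19:53787680-53787699 for 5p and chr19:53787716-53787738 for 3p, and they show a hairpin whose arms were lower together.
miR-371a-5p: aCUCAAACugugggggcacu
miR-371a-3p: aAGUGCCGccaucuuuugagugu

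A further seed is shared by miR-92a, miR-25 and miR-363, and also by the abundant miR-367-3p, whose sequence is not shown. One of the 2 loci of miR-92a is in an exon of MIR17HG (chr13:91351361-91351382, plus strand). MIR25 is in an intron of MCM7 (chr7:100093571-100093592, minus strand), and MIR363 is in an exon of AC002407.1 on chromosome X (chrX:134169382-134169403, minus strand).
miR-92a-3p: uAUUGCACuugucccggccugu
miR-25-3p: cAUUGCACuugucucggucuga
miR-363-3p: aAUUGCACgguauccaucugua

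The miR-130/301/454 seed is shown because 3 of the 4 members below were lower in both hemizygous libraries and one was not. MIR301A (chr17:59151149-59151171) and MIR454 (chr17:59137787-59137809) are both in an intron of SKA2 on the minus strand of chromosome 17. MIR301B (chr22:21653025-21653047) and MIR130B (chr22:21653354-21653375) are in AP000553.1 on the plus strand of chromosome 22, the former in an intron and the latter in an exon.
miR-301a-3p: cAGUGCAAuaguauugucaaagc
miR-454-3p: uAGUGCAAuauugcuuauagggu
miR-301b-3p: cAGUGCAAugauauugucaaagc
miR-130b-3p: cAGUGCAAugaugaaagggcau

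The last set gives both arms of miR-20a, miR-34a and let-7a, whose more abundant arm differed between the wild type and the S1344L libraries. MIR20A is in an exon of MIR17HG (chr13:91351072-91351094 for 5p and chr13:91351108-91351129 for 3p, plus strand), and MIR34A is in an exon of MIR34AHG (chr1:9151735-9151756 for 5p and chr1:9151693-9151714 for 3p, minus strand). The let-7a arms come from several genes, with 3 loci for 5p and 2 for 3p, and the loci given here belong to different hairpins. MIRLET7A2 (5p, chr11:122146568-122146589, minus strand) is in an intron of MIR100HG. MIRLET7A3 (3p, chr22:46112800-46112820, plus strand) is in an exon of MIRLET7BHG.
miR-20a-5p: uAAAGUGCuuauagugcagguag
miR-20a-3p: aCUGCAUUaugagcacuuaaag
miR-34a-5p: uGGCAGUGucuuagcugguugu
miR-34a-3p: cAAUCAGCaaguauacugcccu
let-7a-5p: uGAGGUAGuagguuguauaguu
let-7a-3p: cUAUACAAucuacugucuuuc

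The homozygous libraries held 2289926 and 1814568 miRNA reads and the hemizygous libraries 1000101 and 1833057, in the order replicate 1 and replicate 2 that is kept below. Hemizygous replicate 1 stood apart from the other 3. Its miRNA reads came to 0.729 times the denominator with which the authors scaled it, against 2.42 in hemizygous replicate 2 and 2.43 and 2.18 in the homozygous libraries, so the genotypes overlapped (exact two-sided permutation p = 0.667). It had 30 miRNAs at 3 reads or fewer, against 5 to 7 in the other 3. Across the 594 miRNAs, which are not independent replicates, log2 levels of hemizygous replicate 2 correlated with the homozygous libraries at r = 0.988 and 0.990, those of hemizygous replicate 1 at r = 0.953 and 0.958, and the hemizygous libraries with each other at r = 0.949. The values of both hemizygous libraries are therefore given for the miRNAs and hairpins described in full below. Levels are in reads per 1000000 miRNA reads (RPMM) unless the deposited scale is named, since a share of the miRNA reads does not depend on that denominator. Every library then sums to 1000000, so RPMM cannot show a change in the total of miRNAs. A higher share of abundant miRNAs also lowers the shares of the others.

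**Figure D1:**
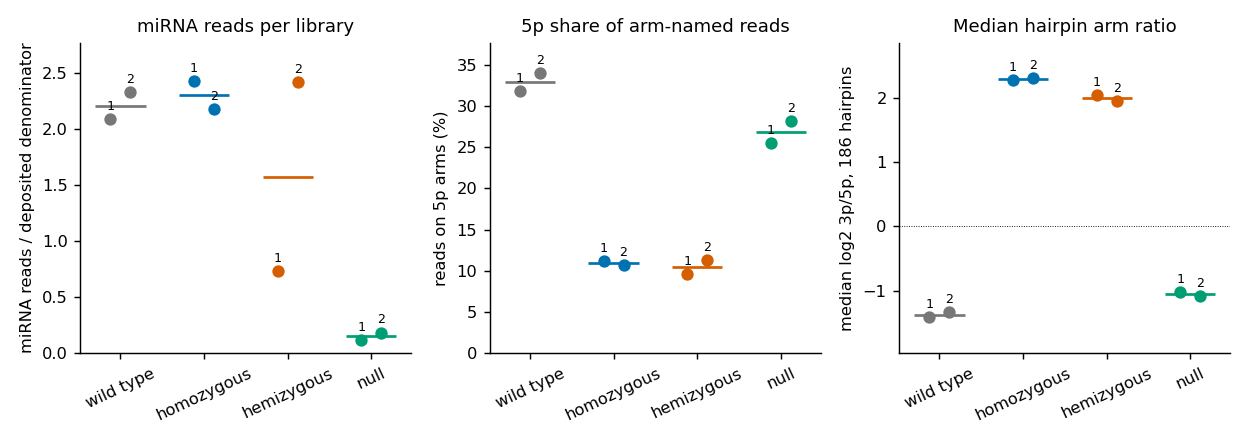
Summary of the 8 libraries, by genotype, with replicate numbers beside the points and the mean as a line: miRNA reads over the deposited denominator (left), percent of arm-named reads on 5p arms (middle) and median log2 3p to 5p ratio of 186 hairpins (right). Hemizygous replicate 1 lies at 0.729 on the left, and in the middle and on the right all 4 S1344L libraries lie apart from the wild type and the null.

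No miRNA passed the test between the genotypes. With limma at a Benjamini-Hochberg adjusted p under 0.05, 0 of 594 miRNAs were called on the deposited scale and 0 of 592 on the scale of miRNA reads (0% called in each). At an unadjusted p under 0.05 the deposited scale gave 0 higher and 7 lower in hemizygous cells, and the miRNA-read scale 3 higher and 10 lower. The voom method of limma, run on the reads computed back from the values, also called 0 on each scale, with 0 higher and 12 lower and with 4 higher and 23 lower at an unadjusted p under 0.05. A p that misses the threshold does not show that the genotypes act alike, and the intervals say how much difference the data allow under this model. The 95% interval of the log2 difference lay within a 2-fold change in either direction for 157 of the 592 miRNAs, and for 125 of the 196 with a mean of at least 500 RPM on the deposited scale in homozygous cells. On the deposited scale it did so for 0 of 594. There the prior degrees of freedom were infinite, so each miRNA took a spread pooled over miRNAs, and the median half-width was 1.87. On both scales the spread was pooled over all 8 libraries, the null included. A fit of the 4 S1344L libraries alone also called 0 on each scale. At an unadjusted p under 0.05 it gave 0 higher and 0 lower on the deposited scale, and 6 higher and 23 lower on the other.

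The median log2 difference, hemizygous minus homozygous, was -0.09 over all miRNAs on the miRNA-read scale, with -0.21 in hemizygous replicate 1 and 0.05 in replicate 2. On the deposited scale the median was -0.85. Without hemizygous replicate 1 it was 0.13, and without replicate 2 it was -1.81 with 433 of 594 miRNAs called (72.9%), so that 1 library decided it. Both hemizygous libraries lay above both homozygous ones for 7 miRNAs (1.18%) and below for 127 (21.4%) on that scale. A positive difference on the miRNA-read scale can for this reason be negative on the deposited scale, and was so for every miRNA named below as higher in hemizygous cells except the snoRNA-linked ones and miR-92a-1-5p.

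**Figure D2:**
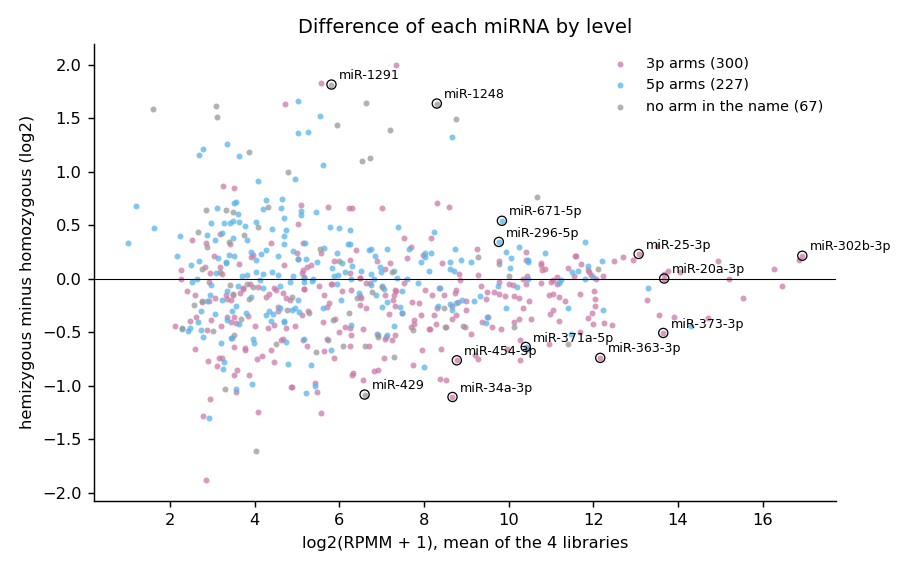
Difference of each miRNA between genotypes (hemizygous minus homozygous, log2, y axis) against its mean level in the 4 S1344L libraries (log2 of RPMM plus 1, x axis), coloured by arm. Most abundant miRNAs sit near 0, 3p arms lie below 0 more often than 5p arms, and none of the points passed the test.

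Arms of the hairpin differed in which way their libraries separated. Among all miRNAs, both hemizygous libraries lay above both homozygous libraries for 78 (13.1%) and below for 130 (21.9%). Of the 300 3p arms, 29 lay above and 92 below. Of the 227 5p arms, 43 lay above and 23 below. The median difference was -0.18 for 3p arms (-0.37 in hemizygous replicate 1 and -0.01 in replicate 2) and 0.05 for 5p arms (-0.08 and 0.15), so within each hemizygous library the 3p arms had the lower median. These counts describe the 4 libraries and were not tested.

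The ratio of the arms within a hairpin does not depend on the denominator apart from the pseudocount. For each hairpin the ratio was log2 of (3p RPM + 1) over (5p RPM + 1). Its median over the 186 hairpins was 2.28 and 2.30 in the homozygous libraries and 2.05 and 1.95 in the hemizygous ones, against -1.41 and -1.33 in the wild type and -1.02 and -1.09 in the null. The hemizygous medians were thus both below the homozygous ones, by 0.29 on average, and far above those of the wild type. The exact two-sided permutation p was 0.333, the smallest that 2 against 2 libraries allow. With at least 50 reads summed over both arms in each of the 4 libraries, the medians were 2.85 and 3.04 in homozygous and 2.50 and 2.70 in hemizygous cells, again without overlap.

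No single hairpin passed the limma test, with 0 of 186 called (0%) and an unadjusted p under 0.05 for 0 higher and 5 lower in hemizygous cells. The hemizygous libraries lay above both homozygous ones for 15 hairpins (8.06%) and below for 51 (27.4%). The median difference was -0.26, with -0.31 in hemizygous replicate 1 and -0.14 in replicate 2. The 72 hairpins with the 3p arm more abundant in the wild type had medians of -0.03 in replicate 1 and -0.39 in replicate 2. The 114 with the 5p arm more abundant had -0.41 and 0.03, so the hemizygous libraries differed in which hairpins carried the lower ratio. More 3p than 5p reads were found for 128 and 131 hairpins in homozygous and 121 and 127 in hemizygous cells, against 71 and 75 in the wild type.

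The share of reads on 5p arms did not separate the genotypes. It was 11.2% (95% Wilson interval 11.1 to 11.2) and 10.6% (10.6 to 10.7) in the homozygous libraries and 9.62% (9.56 to 9.67) and 11.3% (11.3 to 11.3) in the hemizygous ones. The means were 10.9% ± 0.371 and 10.5% ± 1.19 (SD, n = 2 each), and the exact two-sided permutation p was 1. The hemizygous libraries lay on either side of the homozygous pair, and all 4 were well under the 31.9% and 34.04% of the wild type. These intervals cover counting error only, since PCR reads without molecular identifiers are not independent molecules.

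**Figure D3:**
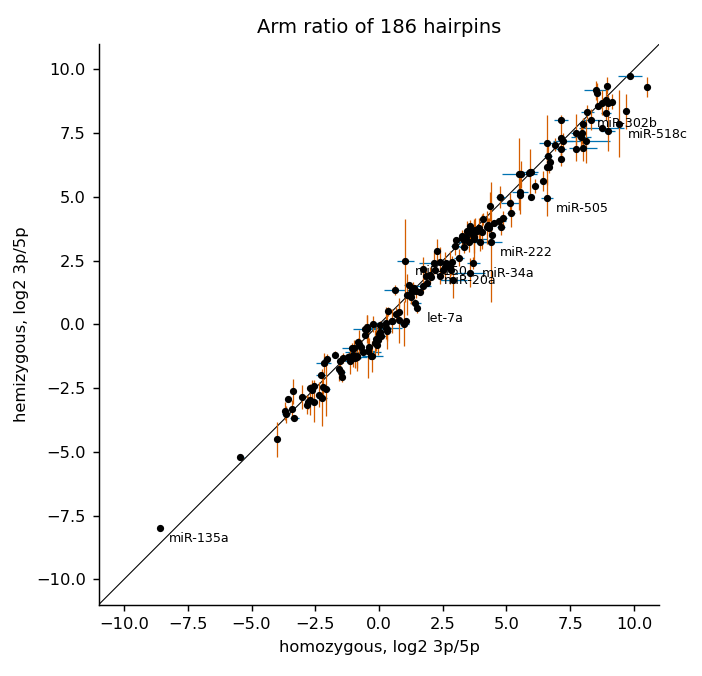
Log2 3p to 5p ratio of each of 186 hairpins in homozygous (x axis) and hemizygous cells (y axis), as means with lines spanning the 2 libraries of each genotype (blue for homozygous, orange for hemizygous); the diagonal marks equal ratios. The hairpins follow the diagonal over the whole range, with 123 lying below it and 63 above it. Both hemizygous libraries lie below both homozygous ones for 51 hairpins and above them for 15.

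The hairpins with the largest separated ratios are given as values, since none passed the test. The lowest relative to homozygous cells was miR-505, at 6.83 and 6.34 in homozygous and 4.24 and 5.69 in hemizygous libraries, a difference of -1.62 (95% interval -2.70 to -0.53, limma adjusted p = 0.715). Its 5p arm rested on 6 and 6 reads in homozygous and 12 and 10 in hemizygous cells. Next came miR-518c of the chromosome 19 cluster at -1.53, miR-221 at -1.38 and miR-130a at -1.31, whose intervals all included 0. Their 3p arms are by far the more abundant, so 5p is the arm whose reads limit these ratios.

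The miR-34a hairpin, whose gene is a target of p53, had ratios of 3.95 and 3.44 in homozygous and 2.17 and 2.66 in hemizygous cells, against -4.74 and -3.81 in the wild type. The difference between the S1344L genotypes was -1.28 (95% interval -2.27 to -0.29, limma adjusted p = 0.916). Its 3p strand, shown above, gave 730 and 390 RPMM in homozygous and 200 and 307 in hemizygous cells, the lowest difference among those 196 miRNAs at -1.10 (95% interval -2.15 to -0.06, limma adjusted p = 0.999). The 5p strand overlapped, at 46.7 and 35.3 against 43.0 and 48.0, so the lower ratio in hemizygous cells went with fewer 3p reads. In the wild type the strands were the other way round, with 1595 and 1512 RPMM for 5p and 58.9 and 107 for 3p.

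The let-7a pair of arms, paired by name over 3 loci for 5p and 2 for 3p, differed less. Its ratio was 1.46 and 1.54 in homozygous and 0.44 and 0.85 in hemizygous libraries, against -6.70 and -5.47 in the wild type, with a difference of -0.86 (95% interval -2.04 to 0.33). The 5p strand, which in differentiated cells restrains growth and pluripotency genes, was at 65.9 and 61.7 RPMM in homozygous and 68.0 and 94.4 in hemizygous cells, far under the 3179 and 2352 of the wild type. The 3p strand was at 183 and 181 against 93.0 and 170. The hemizygous libraries were thus a little higher for 5p and lower for 3p, with differences of 0.32 (-0.45 to 1.10) and -0.53 (-2.07 to 1.01).

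Among separated hairpins with at least 50 reads over both arms in each library, ratios higher in hemizygous cells were smaller. The 5 largest were miR-520c at 0.87, miR-135b at 0.72, miR-10395 at 0.68, miR-1271 at 0.64 and miR-135a at 0.62, each with an interval that included 0. The miR-150 hairpin differed more, at 1.45, but overlapped between genotypes. The miR-135a hairpin had its 5p arm as the dominant one in every library, with ratios of -8.67 and -8.52 in homozygous and -7.93 and -8.02 in hemizygous cells.

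The hairpins of miR-17 and miR-20a showed no separation. Both belong to the miR-17-92 cluster, which promotes proliferation, and their 5p strands are the usual guides. For miR-20a the ratio was 2.16 and 2.27 in homozygous and 2.21 and 2.08 in hemizygous cells (difference -0.06, 95% interval -1.06 to 0.93), against -4.76 and -4.24 in the wild type. The miR-20a-5p level was 2921 and 2724 RPMM in homozygous and 2661 and 3268 in hemizygous cells, against 22076 and 22618 in the wild type. The miR-20a-3p level was 13019 and 13100 against 12337 and 13856, with 815 and 1195 in the wild type. Both S1344L genotypes thus held little of the 5p strand and much of the 3p strand, in overlapping amounts. The difference was 0.06 (-0.29 to 0.42) for the former and 0.00 (-0.60 to 0.60) for the latter.

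Over the wider miR-17-92 group with its paralogs, 0 of 8 5p guides had libraries that did not overlap. The counts were 5 of 6 for 3p guides and 3 of 8 for 3p passengers. Over all miRNAs 13.1% were higher and 21.9% lower. The shares were 18.9% and 10.1% over all 5p arms, and 9.67% and 30.7% over all 3p arms. The 3p guides split, with miR-92a-3p, miR-92b-3p and miR-25-3p higher and miR-19a-3p and miR-363-3p lower in both hemizygous libraries. The median difference was -0.03 for the 5p guides, 0.08 for the 3p guides and -0.22 for the 3p passengers, beside -0.09 over all miRNAs.

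The miR-302 and miR-367 cluster, the most abundant of these cells, differed little. The 5 arms on the 3p side summed to 441896 and 451687 RPMM in homozygous and 482654 and 467067 in hemizygous cells. The most abundant, miR-302b-3p, was at 113270 and 119427 against 138677 and 131323, a difference of 0.21 (95% interval -0.33 to 0.76, limma adjusted p = 0.999). It was higher in both hemizygous libraries, as were miR-302a-3p at 0.17 and miR-302d-3p at 0.09. The other members, miR-302c-3p at -0.18 and miR-367-3p at -0.07, were lower in both. On the deposited scale 1 of 5 was lower in both hemizygous libraries, beside 21.4% of all miRNAs. The genotype means of all 5 were lower in hemizygous cells on that scale, with a median of -0.70 beside -0.85 for all miRNAs. That direction rested on hemizygous replicate 1, without which miR-302b-3p was at 0.25, miR-302a-3p at 0.20 and miR-302d-3p at 0.13. The same fit gave 0.05 for miR-367-3p, while miR-302c-3p stayed below 0 at -0.12.

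All 6 arms of the miR-371-373 cluster were lower in both hemizygous libraries than in both homozygous ones, with a median difference of -0.57 (-0.69 in hemizygous replicate 1 and -0.36 in replicate 2). Over all miRNAs 21.9% were lower in both, and of the 3p arms 30.7%. This cluster is a marker of human pluripotent cells. The miR-373-3p level was 15244 and 14979 RPMM in homozygous and 10351 and 10926 in hemizygous cells, a difference of -0.51 (95% interval -0.93 to -0.09, limma adjusted p = 0.999). The libraries of each genotype lay close together and did not overlap. The miR-372-3p level was 16601 and 17806 against 12750 and 14133, a difference of -0.36 (-1.17 to 0.46). The miR-371a-3p level was 13613 and 12975 against 9965 and 11137, a difference of -0.34 (-0.71 to 0.04).

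The 5p arms of this cluster were lower as well, with miR-371a-5p at 1821 and 1468 against 916 and 1205 (-0.64, 95% interval -1.20 to -0.08), miR-373-5p at -0.82 and miR-372-5p at -1.07. The hairpin ratios therefore did not follow the general shift. The miR-371a ratio was 2.90 and 3.14 in homozygous and 3.44 and 3.21 in hemizygous cells. In the wild type the 3p arms were fewer, at 6185 and 6676 RPMM for miR-373-3p, so the hemizygous values lay between the wild type and the homozygous ones. On the deposited scale the 3p arms of miR-371a, miR-372 and miR-373 stayed negative under each of the 22 alternatives, rescalings included.

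Summed by seed, the 2 most abundant seeds differed little. The AAGUGCU seed shared by miR-302, miR-372, miR-373 and miR-520 held 390350 and 400832 RPMM in homozygous and 428913 and 410490 in hemizygous cells, a ratio of 1.06, and it was higher in both hemizygous libraries. The AUUGCAC seed is also carried by miR-367-3p, one of the 10 most abundant miRNAs, which differed by -0.07. This seed held 141262 and 142220 against 140112 and 142435, a ratio of 0.997, and the libraries overlapped. Within it, miR-92a-3p was at 29262 and 30317 against 34578 and 32347 (0.17, 95% interval -0.11 to 0.45) and miR-25-3p at 7825 and 7986 against 9940 and 8660 (0.23, -0.09 to 0.55). The X-linked member miR-363-3p was at 6042 and 5388 against 2920 and 3997 (-0.74, -1.35 to -0.13, limma adjusted p = 0.999). Members of one seed made from separate loci thus lay on opposite sides of the homozygous values.

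The 20 most abundant seeds held 78.5% and 79.7% of the reads in homozygous and 80.7% and 79.1% in hemizygous libraries. Of these, 4 were higher in both hemizygous libraries, 4 were lower and 12 overlapped. Over all single miRNAs, 13.1% were higher and 21.9% lower in both, and the shares over all 422 seeds are not given. The ratio of the genotype means was within 1.25-fold for 17 of the 20 seeds. Lower in both were the seeds of miR-371a-3p at 0.794, miR-302a-5p at 0.762, miR-200b with miR-200c and miR-429 at 0.786, and miR-148 with miR-152 at 0.832. Higher in both beside AAGUGCU were the miR-15/16 seed AGCAGCA at 1.09, miR-512-3p at 1.13 and miR-517 at 1.16. The miR-302a-5p value rested on hemizygous replicate 1, at 12900 against 22355 in replicate 2 and 23661 and 22598 in homozygous cells.

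**Figure D4:**
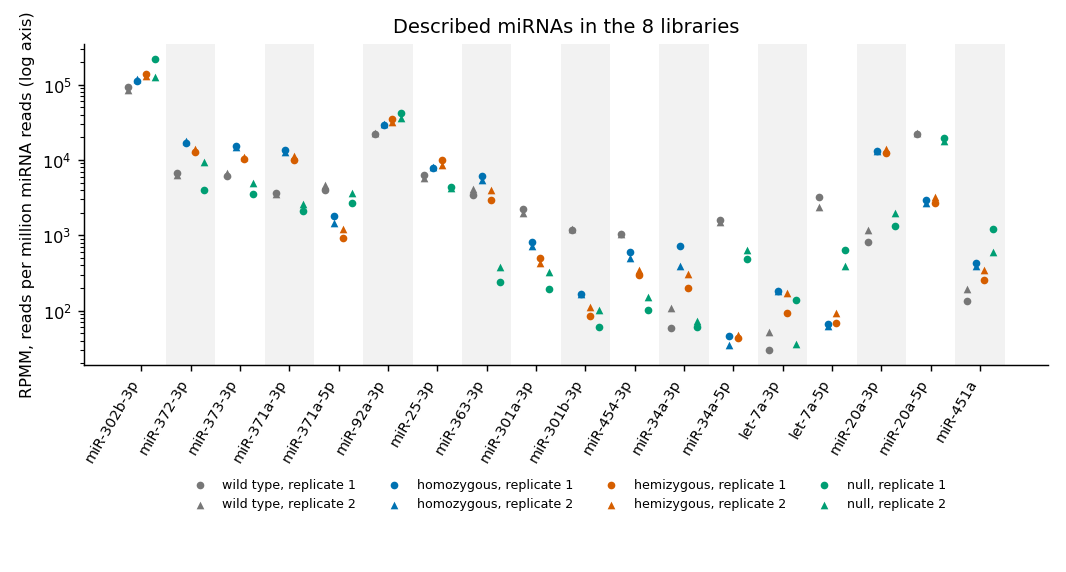
RPMM (log axis) of 18 miRNAs in the 8 libraries, coloured by genotype, with circles for replicate 1 and triangles for replicate 2. For miR-373-3p, miR-363-3p, miR-301a-3p and miR-454-3p the hemizygous points lie below the homozygous ones, and for miR-20a-3p and miR-20a-5p they overlap.

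Within the miR-130/301/454 seed, the members apart from miR-130a and miR-130b were lower in hemizygous cells. The miR-301a-3p level was 824 and 729 RPMM in homozygous and 497 and 426 in hemizygous cells, a difference of -0.75 (95% interval -1.41 to -0.09, limma adjusted p = 0.999). From the same SKA2 intron, miR-454-3p was at 599 and 502 against 301 and 346, a difference of -0.76 (-1.39 to -0.14). Neither overlapped between genotypes, and in the wild type both were higher than in any S1344L library, at 2232 and 1952 and at 1053 and 1054.

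From chromosome 22, miR-301b-3p was at 165 and 165 against 86.0 and 113, a difference of -0.74 (-1.51 to 0.03). Its neighbour miR-130b-3p, with the same seed and arm, was at 3981 and 3819 against 3795 and 4212, a difference of 0.04 (-0.33 to 0.40), and miR-130a-3p differed by 0.07 (-0.20 to 0.35). The last 3 were added after their values were seen, to complete the seed.

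Among miRNAs over 500 RPMM with separated libraries, the highest differences were miR-671-5p at 0.54, miR-296-5p at 0.34, miR-517c-3p at 0.25 and miR-367-5p at 0.25, all with intervals that included 0. The miR-296-5p level was 814 and 720 in homozygous and 926 and 1021 in hemizygous cells, against 4463 and 4276 in the wild type and 8172 and 9117 in the null. The lowest beside those above was miR-200a-3p, at 1602 and 1434 against 681 and 1173. On the deposited scale the 5 lowest were miR-34a-3p at -1.89, miR-342-3p at -1.74, miR-1277-3p at -1.73, miR-489-3p at -1.59 and miR-200a-3p at -1.55, and hemizygous replicate 1 bears on all of them.

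The miR-200 and miR-141 group, which maintains the epithelial state by repressing ZEB1 and ZEB2, had 4 of 7 members lower in both hemizygous libraries and 0 higher, beside 21.9% and 13.1% of all miRNAs. The median was -0.44, with -0.78 in hemizygous replicate 1 and -0.19 in replicate 2. The miR-429 level was 147 and 112 in homozygous and 48.0 and 75.3 in hemizygous cells, a difference of -1.08 (95% interval -1.98 to -0.19, limma adjusted p = 0.999). The most abundant member, miR-200c-3p, was at 6321 and 6430 against 4053 and 5475.

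The remaining families are given by their counts, to be read against 13.1% higher and 21.9% lower over all miRNAs. For lists of a single arm, the shares were 18.9% higher and 10.1% lower over all 5p arms, and 9.67% and 30.7% over all 3p arms. Members of the primate-specific cluster on chromosome 19 were taken by name. Of 30 5p arms, 4 were higher and 5 lower in both hemizygous libraries (median 0.03). Of 32 3p arms, 5 were higher and 5 lower (median -0.06). The 3p list includes miR-514a-3p, whose gene is on chromosome X and not in this cluster. The 5p guides of the miR-15/16 family, which restrain the cell cycle, had 1 of 6 higher and 0 lower (median 0.18). The miR-30 family had 2 of 5 5p arms higher and 1 lower (median -0.00) and 0 of 6 3p arms separated (median -0.22). Of the sensory-organ cluster of miR-183, miR-96 and miR-182, 1 of 6 arms was lower and 0 higher (median -0.14). The miR-34 family had 2 of 6 arms lower, miR-34a-3p and miR-34c-3p, and 0 higher (median -0.36). On the deposited scale the medians of all these lists were negative, as was that of all miRNAs at -0.85, which was 0.13 without hemizygous replicate 1.

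Precursors that bypass part of the usual pathway did not pass the test either. Of 7 miRNAs that need Dicer but not Drosha, 3 were lower in both hemizygous libraries and 0 higher (21.9% and 13.1% over all miRNAs), with a median of -0.38. Among them, miR-320a-3p was at 1318 and 1128 in homozygous and 662 and 902 in hemizygous cells, and miR-484 at 64.6 and 63.9 against 49.99 and 48.0. The Dicer-independent miR-451a, which Argonaute 2 cuts, was at 435 and 392 against 259 and 351, a difference of -0.45 (-1.35 to 0.45), so it too was lower in both hemizygous libraries.

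The miRNAs annotated over snoRNA genes set hemizygous replicate 1 apart. The median of 6 such entries was 2.94 above homozygous cells in replicate 1 and -0.19 in replicate 2. The miR-1248 level was 894 in hemizygous replicate 1 and 126 in replicate 2, against 68.1 and 169 in homozygous cells and 7761 and 21213 in the null. The miR-1291 level was 188 and 9.27, against 10.0 and 13.2 in homozygous cells. Neither genotype separated from the other on these, and their part in the lower miRNA share of that library was not tested.

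Markers of other cell types are given beside the shares over all miRNAs, 13.1% higher and 21.9% lower in both hemizygous libraries. The neural list had 3 of 10 members higher in both hemizygous libraries and 0 lower, with sums of 13156 and 12081 RPMM in homozygous and 17439 and 12937 in hemizygous cells. The fibroblast list had 1 of 10 higher and 1 lower (12319 and 10977 against 7825 and 11246), the mesoderm and endoderm list 0 of 5 higher and 1 lower (376 and 371 against 450 and 370), and the blood and endothelial list 0 of 7 higher and 1 lower (3312 and 3185 against 2683 and 3428). None of the measured defining markers was at 0 reads in these 4 libraries. Fewer cells of a type and less RNA per cell cannot be told apart in bulk samples, and the part of these values in the results above was not tested.

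**Figure D5:**
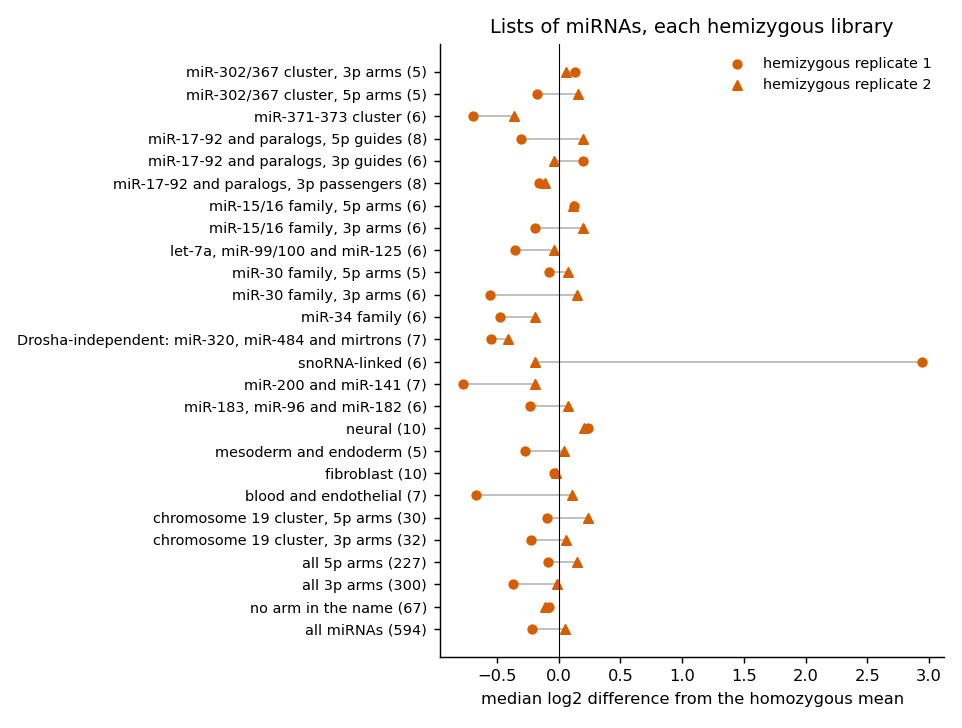
Median log2 difference from the homozygous mean (x axis) for each list of miRNAs with at least 3 members, in hemizygous replicate 1 (circles) and replicate 2 (triangles), with the number of members in brackets. The miR-371-373 cluster lies below 0 in both libraries, as do several other lists. Among these are the Drosha-independent miRNAs (-0.55 in replicate 1 and -0.41 in replicate 2) and the miR-200 and miR-141 group (-0.78 and -0.19). The snoRNA-linked entries lie at 2.94 in replicate 1 only.

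Set beside the wild type, which both comparisons share, the genotypes gave similar numbers of calls. The 3p to 5p ratio was called for 149 of 186 hairpins in homozygous cells (80.1%; 147 higher and 2 lower) and 148 in hemizygous cells (79.6%; 144 higher and 4 lower), with median differences of 3.29 and 2.87. On the miRNA-read scale 295 of 592 miRNAs were called in each (49.8%), with 106 higher and 189 lower in homozygous and 100 higher and 195 lower in hemizygous cells. Against the null, the ratio was called for 149 (80.1%) and 150 (80.6%) hairpins.

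Leaving out hemizygous replicate 1 from the fit of all libraries left the count at 0 of 592 on the miRNA-read scale, with 3 higher and 4 lower at an unadjusted p under 0.05. The count differed only when the wild-type and null libraries were left out as well. In a fit of the homozygous libraries and hemizygous replicate 2 alone, added after the data were seen, limma called 23 of 592 miRNAs (3.89%), with 8 higher and 15 lower, and 2 of 594 on the deposited scale (0.337%). In that fit the lone hemizygous library is assumed to vary like the homozygous pair. Among those lower were miR-19a-3p at -0.56, miR-373-3p at -0.47, miR-301a-3p at -0.86 and miR-363-3p at -0.51. Also among them were miR-34a-3p at -0.80, miR-103a-3p at -0.53, miR-454-3p at -0.66 and miR-372-3p at -0.28. Among those higher were miR-92a-1-5p at 1.72 and the abundant miR-302b-3p at 0.18. These are only a part of the calls, and most were already named above. The ratio of no hairpin was called in the fit of 3 libraries, with 6 higher and 17 lower at an unadjusted p under 0.05. Without hemizygous replicate 2, limma called 3 of 186 hairpins (1.61%), with miR-150 higher by 3.08 and miR-222 and miR-505 lower, at -3.51 and -2.34. The first rests on 1 read of miR-150-5p in hemizygous replicate 1, and miR-150 and miR-222 overlapped between genotypes.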

How the data were processed

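The deposited table holds log2 values made by the authors, 1 column per library per the file headers, for 594 miRNAs. The values are log2 of reads plus 0.5, scaled by a denominator for each library; the unit was read from the values, which step as whole reads do. How the authors set the denominators is not given in the sources used here, nor are the aligner, the counting or the miRNA annotation. Per the submitters' processing notes, cutadapt, limma and hg38 were used, with no versions. Per the labels' protocols, spike-in RNAs were added, and libraries were made by ligation, gel selection and PCR. Spike-in reads were not used here to set a scale.

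From these values, RPM on the deposited scale, reads, and reads per 1000000 miRNA reads (RPMM) were computed. The total of miRNA reads per library was 137655 to 2725756, and 1 read is worth 0.367 to 7.26 RPMM. Log2(value + 1) was tested with limma 3.58.1 in R 4.3.3, with group means over all 8 libraries and a trended prior, two-sided, with p-values adjusted after Benjamini and Hochberg and a threshold of 0.05. A miRNA was tested if 2 or more libraries reached 5 RPM or RPMM. This was met by 594 miRNAs on the deposited scale and 592 on the other. Folds on this scale understate changes of low miRNAs. The 95% intervals come from the same model. Arms were paired by name, so a hairpin here can combine several loci, as for let-7a. The method was tested on simulated counts with planted differences larger than most described here. Those counts held no shift of a single library, so such cases were not covered. "Lower" or "higher" in both libraries means that the groups do not overlap.

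Members and lists were chosen with earlier results of these data known. Named are, per scale and direction, the 5 largest non-overlapping differences with a mean of at least 500 RPM or RPMM, the 5 largest ratios with at least 50 reads in each library, the 10 most abundant miRNAs and list members. Single values were compared by exact permutation. Alternatives were pseudocounts, filters, scalings, fewer libraries, variance options, voom, stricter thresholds and a replicate block.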

Additional observations from a re-analysis of the deposited data

How the results depend on the processing

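The counts of 0 calls held in 22 of 24 alternatives on the deposited scale, 19 of 20 on the miRNA-read scale and 19 of 20 for the ratio. These totals include the stricter thresholds (adjusted p under 0.01 or a log2 difference of at least 1), which could only return 0. On the deposited scale they also include the fit with no filter, which tested the same 594 miRNAs. The exceptions to 0 calls were as follows. Leaving out 1 library in turn gave 0 to 433 calls on the deposited scale, 0 to 0 on the miRNA-read scale and 0 to 3 for the ratio, and the highest counts came without hemizygous replicate 2. The 3 hairpins were miR-150, miR-222 and miR-505. The fit of the homozygous libraries and hemizygous replicate 2 alone gave 2, 23 and 0 calls, and the cause was not tested. The median difference on the deposited scale was -0.85, and it came to 0.02, 0.04, -0.02 and -0.17 after median-ratio, upper-quartile and quantile normalization and after scaling to the 3p arms of the miR-302 and miR-367 cluster, with 0 calls in each. The difference in the 5p share was -0.438 percentage points and ran from -1.28 to 0.406 with 1 library left out. It turned to 0.267 without the 5 most abundant miRNAs, so its sign is not settled.

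With the replicate number as a block, 0 miRNAs were called on each scale and 0 hairpins. Deviations of same-numbered libraries correlated at -0.06 for levels and 0.08 for ratios between the homozygous and hemizygous pairs, and at 0.62 and 0.42 between the wild-type and hemizygous pairs. Since not every pair of genotypes correlated, the numbers were not taken to pair the samples.

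With 2 libraries a genotype the smallest exact p is 0.333. Hemizygous replicate 1, the shallowest of the 4, limits rare arms, since 30 miRNAs had 3 reads or fewer there.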
